A study of Rattus norvegicus with 4 samples.

Results

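The genes described here cut, carry and load the peptides that major histocompatibility complex (MHC) class I molecules display: Tap1, Tap2, Tapbp, Psmb8, Psmb9, Psmb10, Psme1, Psme2, B2m and Nlrc5. They were found by matching the RefSeq accession of each array probe to these 10 gene symbols. Probes were found for 9 of the 10 genes, 11 probes in all, out of 21107 probes that could be given a gene name and 16580 named genes. No probe was matched to Nlrc5, and no value is given for it. All 9 genes with a probe were well above background on all 4 arrays, so none was lost to a filter on dim signals.

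RNA came from vessels of male rats, and which vessel was taken is not stated in the labels. WT rats were Wistar rats, and KO rats carried a deletion of protein kinase C beta (PKCbeta), which the labels also call transgenic without naming the allele or its background strain. Vessels of each genotype were either left as controls or exposed to angiotensin II (Ang II), a peptide hormone that constricts vessels, for 24 h, at a dose that the labels do not give. Each of the 4 groups (control and Ang II in WT, control and Ang II in KO) had 1 array. The series text names 4 rats of each genotype, and the sources used here do not say whether their RNA was pooled.

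With 1 array per group there is no spread between replicates, so no difference between single arrays has a p-value, an SD or a replicate check. Differences were read by size, with 2-fold (1 on the log2 scale) as the threshold. The scanner's own error of a log2 ratio was 0.20 to 0.23 for the 9 genes, and it covers the reading of the array only, not rats, vessels or RNA. Between 40.7% and 43.6% of probes were well above background on an array, no spot was saturated, and the file headers give the same slide and scan time for the 4 arrays. Prkcb, the gene of the deleted kinase, had signals of 14.8 and 18.0 on the WT arrays (control, then Ang II) and of 1.94 and 1.89 on the KO arrays with its brighter probe. It was well above background in WT only, so its bounds in KO are at least 2.11-fold lower (controls) and at least 2.54-fold lower (Ang II arrays). All 9 smooth muscle markers looked at were well above background on all 4 arrays.

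Class I molecules show short peptides from inside the cell to CD8+ T cells. The peptides are cut by the proteasome, whose 3 constitutive catalytic subunits are exchanged in the immunoproteasome for Psmb8, Psmb9 and Psmb10, and whose gate is opened by the PA28 cap made of Psme1 and Psme2. Tap1 and Tap2 form the pump that carries peptides into the endoplasmic reticulum, tapasin (Tapbp) bridges that pump to the waiting class I molecule, and B2m is the light chain that every classical class I molecule needs. Interferon gamma is the classical inducer of these genes, and NLRC5 is the transactivator of class I genes. Vascular cells carry class I at rest and raise it under inflammatory signals.

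Tap2, Psmb8, Tap1 and Psmb9 follow one another without another gene between them on chromosome 20, with RT1-DOb before and RT1-DMb after them in the order of the GRCr8 annotation. Tapbp lies elsewhere on chromosome 20, Psme1 and Psme2 on chromosome 15 with Emc9 between them, Psmb10 on chromosome 19 and B2m on chromosome 3. Promoter windows of 300 bases, from 250 before to 50 after the start of the gene, were available for the 9 genes from RefSeq (GRCr8). They were searched on both strands for the core of the interferon-stimulated response element (ISRE), spelled GAAA, any 2 bases, GAAA, to show what letters genes of a shared interferon biology hold at their starts. The core was present in 7 of the 9 windows, those of Tap1, Tap2, Tapbp, Psmb8, Psmb10, Psme2 and B2m, and in 3.92% of all 33469 windows of the same length. The gamma-activated site, TTCNNNGAA, was in 1 of the 9 (Psmb8) and in 8.87% of all windows, and the kappa B motif of NF-kappa B was in 3 of the 9 (Tap1, Tapbp and B2m) and in 7.51% of all. The ISRE and kappa B motifs did not overlap in these windows. A match describes letters and is not a measured binding site.

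The windows around the matches follow, 5′ to 3′ on the strand of the gene, with the ISRE core in capitals. They are shown because Tap1, Tap2 and Psmb8 carry the largest differences below, and the other genes with the motif are there for comparison. The number of cores did not follow the size of the difference. Tap1, Tap2 and Psmb8 hold 1 core each, and Psmb10, with 2, had the smallest log2 ratio with Ang II in WT (0.11). Psmb9 and Psme1, with 0 cores in their windows, had 0.66 and 0.34. Tap1 lies on the minus strand and Psmb9 on the plus strand, and their windows overlap at the ends far from the gene starts. The stretch that holds the Tap1 core (4668635 to 4668684) lies outside the Psmb9 window, which begins at 4668750. The 0 of Psmb9 thus holds for its window only. In Tap1 the ISRE core reads on the opposite strand and starts 121 bases before the gene start. The kappa B match of Tap1, the second run of capitals, starts 55 bases before the gene start. In Psmb8 the core also reads on the opposite strand, and it runs from 4 bases before the gene start to past it. In Tapbp a pair of overlapping cores makes 1 run of capitals.
Tap1 (chr20:4668544-4668793, minus strand): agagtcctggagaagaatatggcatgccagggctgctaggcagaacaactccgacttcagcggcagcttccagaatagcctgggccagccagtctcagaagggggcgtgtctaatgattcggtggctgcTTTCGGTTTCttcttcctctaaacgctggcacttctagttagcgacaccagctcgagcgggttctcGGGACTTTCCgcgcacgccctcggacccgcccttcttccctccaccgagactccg
Tap2 (chr20:4652308-4652357, minus strand): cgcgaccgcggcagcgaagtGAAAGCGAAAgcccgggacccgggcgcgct
Tapbp (chr20:4967878-4967923, minus strand): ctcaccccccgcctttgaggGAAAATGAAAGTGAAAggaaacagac
Psmb8 (chr20:4657026-4657055, minus strand): cctcctcttggtgctgtggcTTTCGCTTTC
Psmb10 (chr19:50743336-50743385, minus strand): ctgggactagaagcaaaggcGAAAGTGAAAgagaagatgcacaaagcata
Psmb10, the match nearer the start (chr19:50743293-50743329, minus strand): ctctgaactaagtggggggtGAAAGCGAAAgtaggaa
Psme2 (chr15:33052775-33052824, minus strand): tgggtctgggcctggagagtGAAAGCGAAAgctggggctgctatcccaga
B2m (chr3:129549160-129549209, plus strand): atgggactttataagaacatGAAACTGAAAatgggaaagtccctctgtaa

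Tap1, the first chain of the peptide pump, had a processed signal of 29.2 in WT controls, 103.7 in WT with Ang II, 43.6 in KO controls and 39.5 in KO with Ang II. The level used for comparison is the log2 signal minus the 75th percentile of the array, and for Tap1 it was -1.01, 0.73, -0.12 and -0.40 in that order. WT Ang II was the highest array and WT control the lowest, and the KO arrays lay between them, 0.28 apart on the log2 scale. A second Tap1 probe had signals of 6.16 to 6.42 and was not well above background on any array, so it does not measure the gene.

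Tap2, the partner chain, had signals of 271.5, 587.8, 272.5 and 231.9 in the same order of arrays, and levels of 2.21, 3.23, 2.53 and 2.15. WT Ang II was again the highest, and the other 3 arrays lay within 0.37 of each other, wider than the scanner error. A second Tap2 probe, with signals of 61.4, 128.3, 62.2 and 58.0, had levels of 0.06, 1.04, 0.39 and 0.15. Both probes put WT Ang II highest, and they differ in which array is lowest, KO Ang II with the brighter probe and WT control with the other. Tapbp had signals of 210.4, 325.6, 249.6 and 237.5 and levels of 1.84, 2.38, 2.40 and 2.19. Its WT Ang II and KO control levels were thus nearly the same, KO Ang II lay 0.21 under KO control, and WT control was lowest.

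Among the immunoproteasome subunits, Psmb8 had signals of 75.6, 177.3, 85.7 and 80.2 and levels of 0.37, 1.51, 0.86 and 0.62. Psmb9 had signals of 776.5, 1305, 774.1 and 790.8 and levels of 3.72, 4.39, 4.03 and 3.92. Both subunits took the order of Tap1, with WT Ang II highest, then KO control, KO Ang II and WT control. Psmb10 did not take that order, with signals of 484.1, 554.5, 535.5 and 551.4 and levels of 3.04, 3.15, 3.50 and 3.40, so that both KO arrays stood above both WT arrays.

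The PA28 cap genes were read by 9 or 10 replicate spots per array, which gives them the finest technical precision of the 9 genes. Psme1 had signals of 4733, 6361, 6559 and 6674 and levels of 6.33, 6.67, 7.11 and 7.0, with an SD between spots of 0.060, 0.034, 0.039 and 0.044. Psme2 had signals of 3908, 5082, 4371 and 4432 and levels of 6.06, 6.35, 6.53 and 6.41. In both, the KO arrays stood above the WT arrays. B2m, the light chain, had signals of 13513, 16691, 13903 and 13423 and levels of 7.85, 8.06, 8.20 and 8.01, a range of 0.35 over all arrays.

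WT control held the lowest level of 8 of the 9 genes, all but Tap2, where 28.4% of the 8600 genes measured on all arrays were lowest on that array. WT Ang II held the highest level of 4, Tap1, Tap2, Psmb8 and Psmb9, where 32.2% of all genes were highest on it. The other 5 were highest on KO control. This order depends on how arrays are brought to a common scale, because the 75th percentile signal was 58.7, 62.4, 47.3 and 52.1. With no scaling between arrays, 8 of the 9 were highest on WT Ang II and 1 on KO Ang II, and with another background correction (normexp) 7 were highest on WT Ang II.

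**Figure D1:**
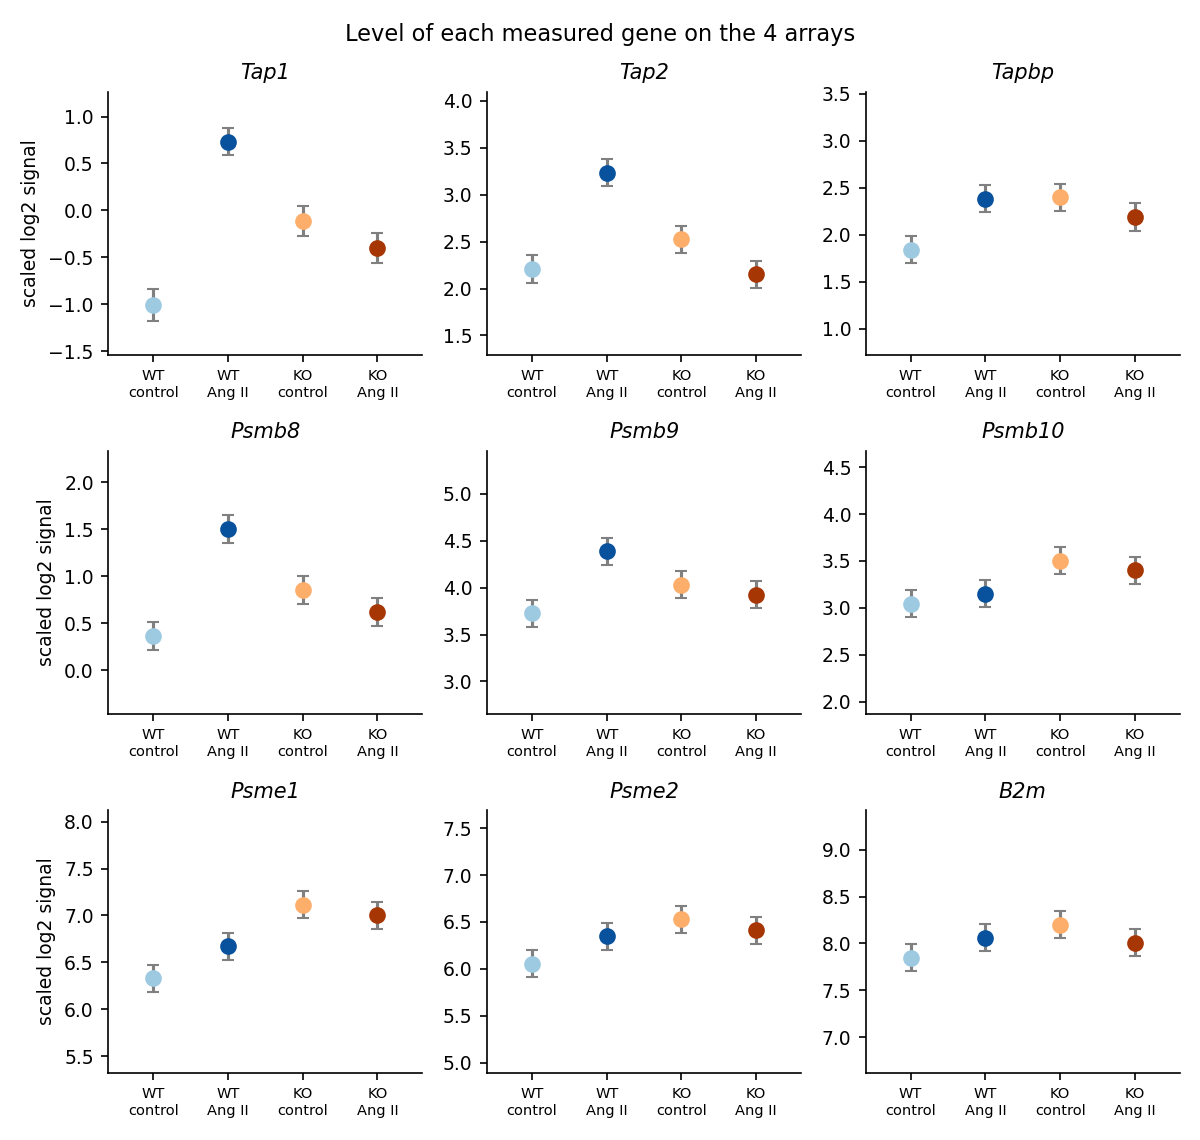
Level of each of the 9 measured genes on the 4 arrays, as log2 signal minus the 75th percentile of the array (vertical axis, with the same span of log2 units in every panel). Points are single arrays and bars are the scanner's error of that signal, not a spread between replicates. Tap1 runs from -1.01 on WT control to 0.73 on WT Ang II, while B2m stays between 7.85 and 8.20.

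The first comparison asks how WT vessels differed with Ang II. All 9 genes were higher with Ang II on the WT arrays, where 55.1% of 9812 genes were above 0, and their median log2 ratio was 0.54 against 0.04 over all genes. At least 2-fold higher were 3 of 9, against 2.02% of all genes (198). Tap1 was 3.34-fold higher (log2 1.74, scanner error 0.22), rank 15 of 9812 from the top. Psmb8 was 2.20-fold higher (log2 1.14, scanner error 0.21) and Tap2 2.04-fold (log2 1.03, scanner error 0.20), and the second Tap2 probe gave 1.97-fold. Tap2 fell short of 2-fold with the percentile taken over detected probes (log2 0.98) and with quantile normalization (log2 0.996), which left 2 of 9.

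The rest of the pathway was higher by less than 2-fold. Psmb9 was 1.58-fold higher (log2 0.66) and Tapbp 1.46-fold (log2 0.54). Psme1 was higher by 0.34 and Psme2 by 0.29 on the log2 scale, with errors from replicate spots of 0.023 and 0.015. Their scanner error was 0.20 each. B2m was higher by 0.22, close to the scanner error of 0.20, and Psmb10 by 0.11, which is inside it. The transporter chains and Psmb8 thus carried the large differences, and PA28, the light chain and Psmb10 small ones. Under normexp correction, which adds a constant to all signals and narrows ratios of dim probes, none of the 9 reached 2-fold and Tap1 had a log2 ratio of 0.73.

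The second comparison is the same one in KO vessels. All 9 genes were lower with Ang II on the KO arrays by small amounts, where 51.1% of 9264 genes were below 0, with a median log2 ratio of -0.19 against -0.00 over all genes. Without scaling between arrays Psmb9, Psmb10, Psme1 and Psme2 turned to values between 0.02 and 0.04, under the median of 0.13 that all genes then had, and under normexp Psmb10 turned to 0.01. None was 2-fold higher or lower, against 0.443% and 1.4% of all genes. Tap2 was lowest at -0.37 (1.29-fold lower), then Tap1 at -0.28, Psmb8 at -0.24 and Tapbp at -0.21. These 4 exceeded their scanner error, and B2m (-0.19), Psme2 (-0.12), Psme1 (-0.11), Psmb9 (-0.11) and Psmb10 (-0.10) did not.

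A response higher in WT and lower in KO was found in 9 of the 9 genes and in 30.5% of the 8600 genes measured on all arrays. The response in KO minus that in WT, on the log2 scale, was -2.02 for Tap1, -1.40 for Tap2 and -1.38 for Psmb8. At least 2-fold lower by this measure were 3 of 9 genes, against 2.87% of all genes. It was -0.77 for Psmb9 and -0.75 for Tapbp, between -0.45 and -0.41 for Psme1, Psme2 and B2m, and -0.20 for Psmb10, so that 9 of 9 lay below 0, as did 56.0% of all genes. The median of the 9 was -0.75, and that of all genes -0.05. Under normexp Tap2 (-1.23) was still past 2-fold, and Tap1 (-0.87) and Psmb8 (-0.85) were not. A difference of differences uses all 4 arrays once, so it could not be tested with 1 array per group.

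**Figure D2:**
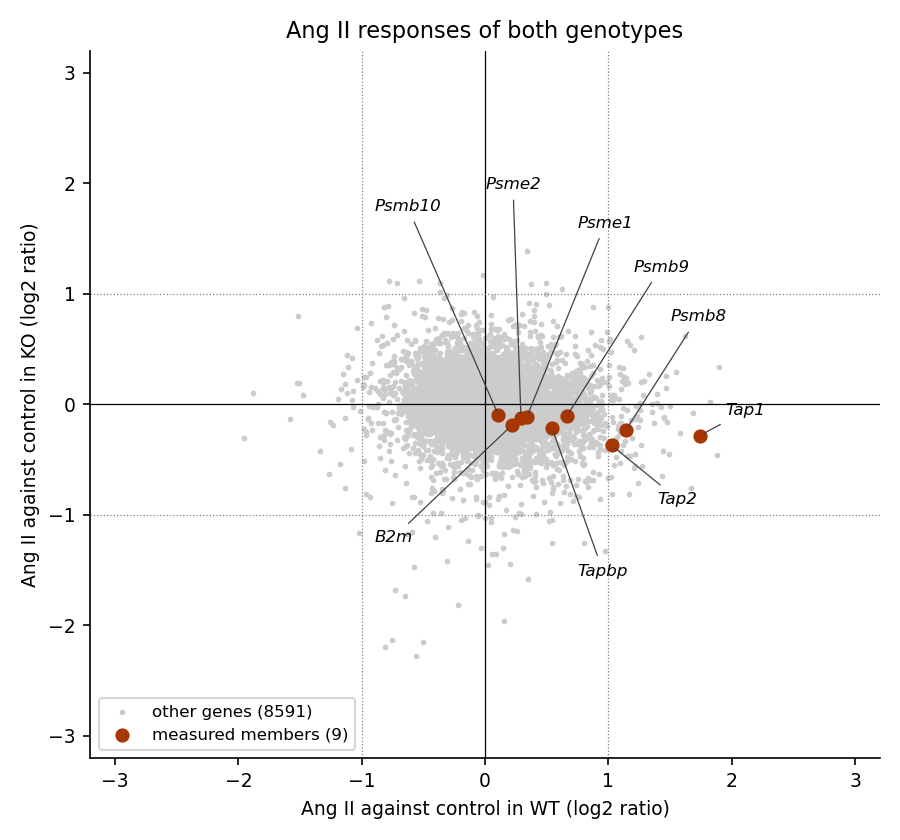
Log2 ratio of Ang II against control in WT (horizontal axis) and in KO (vertical axis) for 8600 genes well above background on all 4 arrays, 1 point per gene. Dotted lines mark 2-fold, and the 9 measured genes, labelled, lie right of 0 and below 0, from 0.11 (Psmb10) to 1.74 (Tap1) in WT and from -0.37 (Tap2) to -0.10 (Psmb10) in KO.

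The comparison of genotypes without Ang II shares the WT control array with the WT response, and that array was the low one for 8 of the 9 genes. All 9 were higher in KO than in WT, where 50.5% of 9582 genes were above 0, with a median log2 ratio of 0.47 against 0.01 over all genes. None was 2-fold apart, against 2.92% of all genes higher and 4.06% lower. Tap1 was 1.86-fold higher (log2 0.89, scanner error 0.23) and Psme1 1.72-fold (log2 0.78, scanner error 0.20, error from replicate spots 0.024). Tapbp followed at 0.56, Psmb8 at 0.49, Psme2 at 0.47 and Psmb10 at 0.46, and B2m (0.35), Tap2 (0.32) and Psmb9 (0.31) were lowest. Without scaling between arrays the values were lower by the 0.31 that separates the scaling factors, and Psmb9 stood at -0.00 where the median of all genes was -0.30. Tap1 moved to 0.24 under normexp.

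With Ang II the genotypes differed the other way for the pump. Tap1 was 2.19-fold lower in KO than in WT (log2 -1.13, scanner error 0.22) and Tap2 2.12-fold lower (log2 -1.08, scanner error 0.20), so 2 of 9 were at least 2-fold lower against 5.21% of 9644 genes. Psmb8 was 1.85-fold lower (log2 -0.88) and Psmb9 1.38-fold lower (log2 -0.46). Tapbp at -0.19, B2m at -0.05 and Psme2 at 0.06 lay within the scanner error, and Psme1 at 0.33 and Psmb10 at 0.25 were higher in KO. Without scaling between arrays Psmb10 turned to -0.01 and Psme2 to -0.20, where the median of all genes was -0.30, and Psme2 turned to -0.07 under normexp. The second Tap2 probe was 1.85-fold lower, so averaging the probes of each gene left 1 of 9 past 2-fold, Tap1, while under normexp Tap2 (-1.09) stayed past it and Tap1 (-0.63) did not. Above 0 with the main scaling were 3 of 9, against 46.2% of all genes, and the median of the 9 was -0.19 against -0.04 over all genes. A gene higher in KO without Ang II and lower with it was found in 6 of 9 and in 16.3% of the 8600 genes measured on all arrays.

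**Figure D3:**
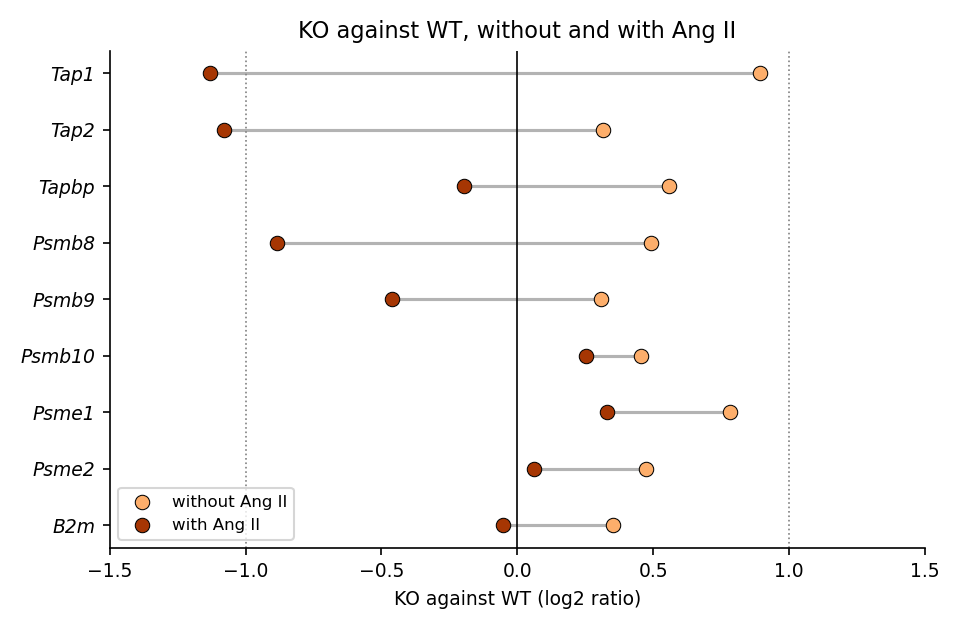
Log2 ratio of KO against WT (horizontal axis) for each of the 9 measured genes, without Ang II (light points) and with Ang II (dark points), with a line joining the values of a gene and dotted lines at 2-fold. All light points lie between 0.31 and 0.89, and dark points run from -1.13 for Tap1 to 0.33 for Psme1.

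Genotype and Ang II were also fitted together, as additive terms, over the 4 arrays. The fit used limma over 9387 genes, and its single residual degree of freedom is the difference of responses itself, so genes whose response differed between genotypes have a wide error in it. No gene passed an adjusted p of 0.05 for either term (0.0% of genes), while 2453 had an unadjusted p under 0.05 for genotype and 360 for Ang II. Psme1 had the lowest adjusted p of the 9 genes for genotype, a log2 difference of 0.56 with SE 0.19 and a limma adjusted p of 0.174. Tap1 had a log2 difference of 0.73 with SE 0.52 for Ang II and a limma adjusted p of 1.0. Under normexp 382 genes passed for genotype, none of them among the 9.

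The other proteasome genes show how far these differences went beyond the immunoproteasome. Psmb5, Psmb6 and Psmb7, the constitutive subunits that Psmb8, Psmb9 and Psmb10 replace, had log2 ratios with Ang II in WT of 0.41, 0.19 and 0.63, and in KO of -0.06, -0.09 and 0.08. The ratio of Psmb7 in WT was thus close to the 0.66 of Psmb9. Of the 11 other subunits of the 20S core, 9 were above 0 in WT and 3 in KO, with medians of 0.21 and -0.04 and none at 2-fold. Psma1 and Psma2 stood at 0.53 and 0.35 in WT, and Psma3 and Psma4 at -0.08 and -0.26. The median of the core in KO turned to 0.09 without scaling and to 0.04 under normexp.

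The 17 subunits of the 19S cap, the regulator of ubiquitin-dependent degradation, had a median of 0.08 with Ang II in WT and -0.06 in KO. Psmc1, Psmc2, Psmc3 and Psmc4, its ATPases, had ratios of 0.22, -0.02, 0.24 and 0.43 in WT. Psmd7 was at least 2-fold apart once, higher in KO than in WT with Ang II (log2 1.0). Of 5 other activators and assembly factors with a probe, all were above 0 in WT, at 0.27 for Psme3, 0.04 for Psme4, 0.15 for Pomp, 0.46 for Psmg2 and 0.17 for Psmg4. The proteasome at large therefore had smaller ratios in WT than Tap1, Tap2 and Psmb8, but not than all of the 9 genes. Psmd13 and Psmd3 of the 19S cap stood at 0.76 and 0.56, against 0.66 for Psmb9 and 0.54 for Tapbp. The KO minus WT response had a median of -0.47 over the constitutive subunits, -0.28 over the other core subunits and -0.10 over the 19S cap. That of the 9 genes was -0.75.

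A peptide-trimming gene and the chaperone genes that help class I fold in the endoplasmic reticulum did not share the pattern. Lnpep, a trimming peptidase of endosomes, had ratios of 0.18 in WT and 0.19 in KO. The chaperone genes Calr, Canx and Pdia3 had ratios of -0.04, 0.04 and 0.32 in WT, and of 0.35, 0.27 and 0.48 in KO. All 4 were thus above 0 in KO, where the 9 genes of the loading machinery were below it, and their median difference of responses was 0.20. Without Ang II the 3 chaperones were lower in KO than in WT, at -0.43, -0.60 and -0.48. Tapbpl was not well above background on any array. No probe was matched to Erap1, another trimming peptidase, so Lnpep was the only trimming gene read.

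Class I heavy chains, which the machinery serves, are RT1 genes in the rat. Of 36 RT1 class I genes and other partners of B2m with a probe, 25 passed background on 1 or more arrays. With Ang II 22 of 25 were above 0 in WT (median 0.66) and 2 of 23 in KO (median -0.24). KO minus WT response had a median of -0.82 and was at least 2-fold lower in 9 of 23, RT1-CE10, RT1-CE11, RT1-CE13, RT1-CE15, RT1-CE16, RT1-CE3, RT1-N3, RT1-S3 and RT1-T18, from -1.43 to -1.02. With Ang II none of the 23 was higher in KO than in WT, and RT1-CE11 (-1.45) and Cd1d1 (-1.04), a lipid-presenting partner of B2m, were at least 2-fold lower.

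The RT1-A genes had lower ratios in WT than the median of that list. RT1-A1, RT1-A2 and RT1-A3 had ratios of 0.20, -0.22 and 0.05 with Ang II in WT and -0.33, -0.24 and -0.30 in KO. RT1-CE10 had 0.87 in WT and -0.31 in KO. RT1 genes are near-identical copies and differ between rat strains, so their probes can read each other's RNA and the count of 25 genes is not a count of independent readings.

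The regulators of class I genes had positive ratios in WT. All 18 measured regulators were above 0 with Ang II in WT, with a median of 0.29, and 9 of 17 were above 0 in KO, with a median of 0.07. Irf1, a transcription factor induced by interferon gamma, had ratios of 0.51 in WT and 0.08 in KO. Irf2 had 0.28 in WT and -0.01 in KO, and Irf9 0.24 and -0.06. Tnf, a cytokine that raises class I, was 2-fold higher in WT (log2 1.01), at 0.59 in KO, and lower in KO than in WT both without Ang II (-1.78) and with it (-2.21). Ifngr1, a chain of the interferon gamma receptor, was lower in KO with Ang II (-1.01). Ifng, the cytokine, and the regulators Ciita, Irf8 and Socs1 were not well above background on any array, and Ifnb1 was so on WT Ang II only.

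Interferon-induced genes outside the class I pathway had larger ratios than most of the 9 genes. All 14 were above 0 with Ang II in WT, with a median of 0.95, and 5 were at least 2-fold higher, Gbp5 (1.44), Cxcl11 (1.14), Ifit3 (1.45), Usp18 (1.48) and Bst2 (1.67). In KO 3 of 13 were above 0, with a median of -0.16. With Ang II, 9 of 14 were at least 2-fold lower in KO than in WT, and Gbp5, a guanylate-binding protein of host defence, was lowest at -2.57. Without Ang II their median was 0.00, whereas that of the 9 genes was 0.47. The list was drawn up with earlier results of these arrays known, so its direction is not independent evidence.

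**Figure D4:**
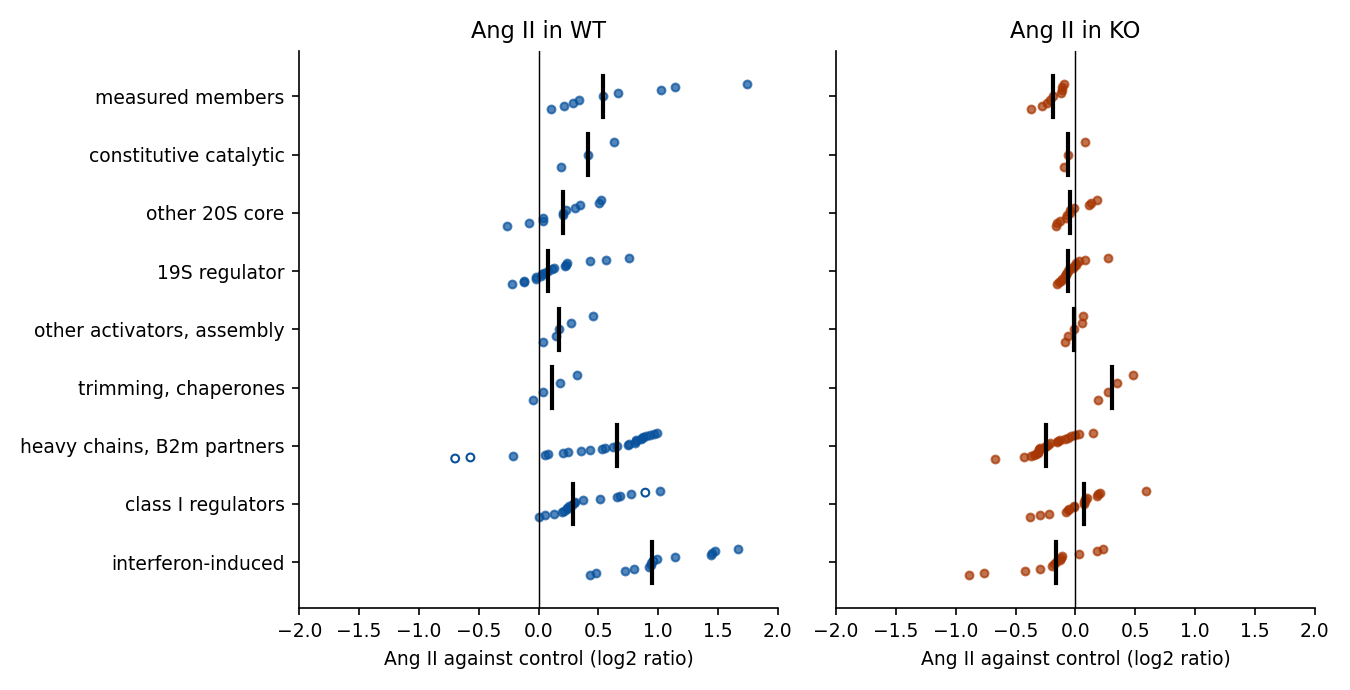
Log2 ratio of Ang II against control (horizontal axes) in WT (left) and KO (right) for the 9 measured genes and 8 lists of related genes, 1 point per gene, with open points for genes that have only a bound and a black bar for the median of each list. The medians of the 9 genes are 0.54 and -0.19, those of class I heavy chains and B2m partners 0.66 and -0.24, and those of interferon-induced genes 0.95 and -0.16.

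The genes whose pattern over the 4 arrays came nearest to that of Tap1 were found by the root mean square difference of levels, after subtracting the mean of each gene, among 8599 others measured on all arrays. Ifit3, an interferon-induced antiviral gene, was nearest at 0.12. Ip6k2, an inositol phosphate kinase, and Tfpi2, a protease inhibitor, followed at 0.15 each, then Phlda1 at 0.16 and Scfd2 at 0.17. Of the other genes of the machinery, Psmb8 ranked 15 (0.22) and Tap2 47 (0.29), whereas Psme1 ranked 2837 and Psmb10 3673. This distance counts the size of a change as well as its direction, so a gene that varies little is also far from Tap1.

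Leukocytes carry much of this machinery, so markers of other cells were read beside it. In such tissue RNA, fewer cells of a type and less RNA per cell cannot be told apart. Of 5 leukocyte markers, 4 were well above background, and all 4 were below 0 with Ang II in WT, with a median of -0.15. Their summed level, in units of the 75th percentile signal, was 11.2 and 9.87 in WT (control, then Ang II) and 7.08 and 7.39 in KO. The 9 macrophage markers well above background summed to 45.0, 47.0, 25.0 and 29.5. With Ang II in WT the leukocyte sum was thus lower and the macrophage sum higher. Single macrophage markers were divided, with 4 above 0 and 5 below and a median of -0.12, from -1.66 for Cd163 to 0.73 for Adgre1. Both sums were lower on the KO arrays than on the WT arrays. The part of leukocytes and macrophages in the result was not tested.

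Of 8 T cell markers, Cd3d and Cd4 were well above background on all 4 arrays, with sums of 2.39 to 2.49, while Cd3e, Cd3g, Cd2, Cd8a, Cd8b and Lck were not well above background on any array, and neither were any of 5 natural killer cell markers or of 4 neutrophil markers with a probe. Of 5 dendritic cell markers with a probe 3 were measured, and they summed to 1.64 and 2.06 in WT (control, then Ang II) and to 1.34 and 1.32 in KO, while Xcr1 and Ccr7 were not well above background on any array. Erythroid genes summed to 16.3, 29.3, 17.8 and 25.1 in the same order, and lymphatic endothelial markers to 203.1, 267.3, 159.7 and 143.8. The dendritic, erythroid and lymphatic sums were highest on WT Ang II, as were those of macrophages and fibroblasts. The lymphatic sum was carried mostly by Prox1, whose level was 7.46 in WT controls and 7.89 with Ang II. Single lymphatic markers were divided in WT, with 3 above 0 and 2 below. Prox1 (0.43), Pdpn (0.22) and Flt4 (0.85, a bound) were higher with Ang II, and Lyve1 (-1.64) and Reln (-1.32) at least 2-fold lower. Between the control arrays, Lyve1 (-3.10), Reln (-3.88), both bounds, and Prox1 (-0.48) were lower in KO than in WT. Pdpn (0.43) and Flt4 (1.68, a bound) were higher there. The white adipocyte markers Adipoq (-2.34) and Fabp4 (-1.80), both bounds, were also lower in KO controls. The part of these sums and markers in the results was not tested. Endothelial markers summed to 39.0, 35.9, 30.9 and 33.0. Smooth muscle markers summed to 145.6, 134.7, 187.2 and 208.0, and fibroblast markers to 713.3, 740.1, 447.0 and 400.5. By these sums the KO arrays had more smooth muscle and less fibroblast signal than the WT arrays, both without and with Ang II. Of 9 smooth muscle markers, 8 were higher in KO in each case. Des was lower without Ang II (-1.11) and Lmod1 with it (-0.26). Without Ang II 5 of 7 fibroblast markers were lower in KO, and Dcn (0.14) and Pi16 (0.50) were higher. With Ang II all 7 were lower. The part of these cell types in the differences between genotypes was not tested.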

How the data were processed

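Scanner output of 4 one-colour (Cy3) Agilent arrays was used, 1 per group. The intensity values were deposited as the processed signal, which per the file headers had its background subtracted and a spatial trend removed, with no normalization between arrays. For the scanner software, Agilent Feature Extraction, the version is 12.1.1.1 per the submitters' processing notes and 10.7.1.1 per the file headers. A second table deposited by the authors is in log2 units. For 98.3% to 98.4% of its probes it equals the log2 signal plus 1 constant per array, to within 0.01, and its medians are 2.29 and 2.22 in WT (control, then Ang II) and 2.27 and 2.11 in KO. No source used here gives the reason for the constants.

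Control spots and outlier spots (301 to 372 of 58717 per array) were left out, spots of a probe were averaged, and 4 of 45598 probes were dropped. The level is log2 of the signal minus the 75th percentile of the array. Replicate spots had a median SD of 0.0689 to 0.0786 (log2), which is technical precision, and the number of arrays limits every comparison. A probe counted as well above background where at least 50% of its spots carried the scanner's flag. Accessions were matched without versions to RefSeq genes of GRCr8 (24487 probes unnamed), used for names and neighbours only, while promoter windows carry their own GRCr8 positions. A gene took its brightest probe. Where it was well above background on 1 of 2 arrays, the other array took its own value or, if higher, the lowest value well above background there, and the ratio is a bound.

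Single comparisons used a 2-fold rule without a test. The additive fit used limma 3.58.1 in R 4.3.3 with Benjamini-Hochberg adjustment, 3.13 prior degrees of freedom over genes that passed background on 2 or more arrays. Scripts were tested on simulated data. Other steps used Python 3.11.15, numpy 2.4.6, pandas 2.3.3 and matplotlib 3.10.9. Named were all members, Prkcb, every measured gene of a list of up to 8, otherwise the first 4 measured and any at least 2-fold apart (examples where many), and the 5 genes nearest Tap1; genes not above background were added after their values were seen. Members and lists were chosen with earlier results of these data known. Alternatives were other scalings, normexp (offset 50), the deposited value table, the mean of a gene's probes and other filters. Normexp had been planned on mean pixel signals and used median pixel signals instead. One gene that the naming rule would name is not reported here.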

Additional observations from a re-analysis of the deposited data

Results flagged for a closer look

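The response to Ang II had opposite directions in the genotypes for each of the 9 measured genes, higher on the single WT pair of arrays and lower on the single KO pair. The KO minus WT response on the log2 scale was -2.02 for Tap1, -1.40 for Tap2, -0.75 for Tapbp, -1.38 for Psmb8, -0.77 for Psmb9, -0.20 for Psmb10, -0.45 for Psme1, -0.41 for Psme2 and -0.41 for B2m. With 1 array per group the difference was not tested. The same opposite directions were seen in 30.5% of all genes measured on the 4 arrays. In KO the values of Psmb9, Psmb10, Psme1, Psme2 and B2m lay within the scanner error, as did that of Psmb10 in WT. For Psmb9, Psmb10, Psme1 and Psme2 the KO value turned above 0 without scaling between arrays, and for Psmb10 also under normexp.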

How the results depend on the processing

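The median of the 9 genes kept its direction in each of the 5 comparisons under the 8 alternatives run, with ranges of 0.50 to 0.63 (Ang II in WT), -0.19 to -0.05 (Ang II in KO), 0.16 to 0.49 (KO against WT without Ang II), -0.45 to -0.16 (with Ang II) and -0.76 to -0.70 (KO minus WT response). Counts of genes at least 2-fold apart were less stable. Under normexp they were 0 for Ang II in WT (3 before), 1 for KO against WT with Ang II (2 before) and 1 for the difference of responses (3 before). Ang II in WT gave 2 with the percentile over detected probes and with quantile normalization, without Tap2, and KO against WT with Ang II gave 3 without scaling, with Psmb8 (-1.14). Averaging the probes of a gene gave 1 for KO against WT with Ang II. Under normexp the additive fit called 382 genes for genotype, where it called 0 before. Tap1 moved by over 1.5-fold under normexp, to 0.73 for Ang II in WT, 0.24 for the genotypes without Ang II and -0.87 for the difference of responses; normexp adds an offset of 50, which exceeds the Tap1 signal of 29.2 on WT control. Of 360 values of single genes under alternatives, 357 stayed within 1.5-fold and 9 changed sign, 7 of these without scaling. In that setting the median of all genes stood at 0.13 for Ang II in either genotype. It stood at -0.30 for KO against WT, both without and with Ang II. No paired analysis was possible because each group had 1 array. With 1 array per group, no replicate could be left out.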

Other observations

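Genes with an ISRE core in their promoter window were described over the whole array, beside the genes of the loading machinery. Of 241 such genes measured with Ang II in WT, 16 were at least 2-fold higher (6.64%), against 1.81% of 7836 genes without the motif, and the medians were 0.16 and 0.04. In KO the medians were -0.04 with the motif and -0.00 without. The KO minus WT response was at least 2-fold lower in 24 of 220 genes with the motif (10.9%) and in 176 of 6879 without (2.56%). For the other motifs searched this share was also higher with the motif, by less. It was 5.43% against 2.54% for kappa B and 4.02% against 2.73% for the gamma-activated site. These shares hold genes of the report as members, genes are not independent replicates, and no test was made.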
